A study of Mus musculus with 6 samples.

Results

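Gene-end peaks were the H3K9me3 peaks of WT Bergmann glia (BG) whose centre the authors placed in a 3′ UTR or in their TTS class, the window from 100 bp before to 1 kb past the annotated end of a transcript, and whose detailed annotation names neither a repeat nor a CpG island. There were 733 of them among 34673 peaks, or 2.11% of the list (95% Wilson interval 1.97 to 2.27), with 449 in the TTS class and 284 in the 3′ UTR class. The condition on repeats removed nothing. Of the 2181 peaks that the authors placed in an exon, a UTR, a promoter, a TTS window or a non-coding exon, 0 carry a repeat or CpG island name, while 57.7% of the 32465 intron and intergenic peaks carry a repeat name. The peaks are therefore called gene-end peaks here, and their repeat content is given below from the sequence.

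The study profiled BG, radial glial cells that span the cerebellar cortex, by ChIP-seq at postnatal day 10 in C57BL/6 mice, with 2 libraries labelled MT H3K9me3, 2 labelled WT H3K9me3 and 2 controls whose labels name both input and IgG. The mutant carried Setdb1 flox/flox and mGFAP-Cre, and cells were sorted by Nes-GFP. This Cre acts in other neural cells of the cerebellum too, and Nes-GFP labels mostly, not solely, BG. The deposited peaks are those that the authors found in WT and not in mutant cells. They form 1 merged list with 1 score per peak, so no library has a value of its own, depth per library is unknown, and no difference between mutant and WT BG could be tested. Intervals cover counting error only, and neighbouring peaks are not independent.

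H3K9me3, the trimethylated form of lysine 9 on histone H3, marks silent heterochromatin. The methyltransferase Setdb1 deposits it, typically at retroelements, at clusters of zinc finger genes and at some germline and imprinted genes. In mammalian cells the mark is also known over the 3′ coding exons of zinc finger genes. The 3′ UTR is the transcribed stretch between the stop codon and the cleavage site, which usually follows a polyadenylation hexamer, and a gene's annotation ends there.

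The sites below show what the sequence past gene ends looked like in the peaks. They are the TTGGCA sites, half-sites of the nuclear factor I family, nearest to the centre of the TTS class peaks with the highest scores at protein-coding genes, outside annotated exons. Each is given on the strand that reads TTGGCA, in mm10, with the site in capitals, from RefSeq GRCm38.p6.

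Fyco1, chr9:123788504-123788533, minus strand, peak score 23.7: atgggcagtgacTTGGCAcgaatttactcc
Slc29a3, chr10:60712024-60712053, minus strand, peak score 16: ttaattgtggccTTGGCAggaagcagtgtg
Ccr9, chr9:123783644-123783673, minus strand, peak score 15.4: tattcccgggttTTGGCAccactttgtcct
H2al2a, chr2:17995966-17995995, minus strand, peak score 14.8: tgtggcataatgTTGGCAttaggttcaagg
9530068E07Rik, chr11:52409615-52409644, plus strand, peak score 13.8: aggattatacagTTGGCAtctagtccacct
Kirrel2, chr7:30447294-30447323, minus strand, peak score 12.2: gtaggggaagaaTTGGCAtggtttcacaca

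The sites lay 34 bp (Slc29a3) to 982 bp (Fyco1) past the end of the gene. TTGGCA was found on either strand in 189 of 733 gene-end peaks, or 25.8% (22.7 to 29.1), against 29.2% (28.7 to 29.7) of all other peaks, a difference of -3.42 points (Newcombe interval -6.49 to -0.09). Among peaks of the commonest width, 500 bp, the shares were 23.6% of gene-end peaks and 26.5% of all other peaks, and the interval of that difference included 0 (-6.17 to 0.77). The full palindrome, TTGGC followed after 5 bases by GCCAA, was in 0 of 733 gene-end peaks, which allows a share of up to 0.409% (3 counts), and in 13 of 33867 other peaks. A match is a stretch of letters and not a measured binding site.

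The score is the authors' peak score, and no source used here states its scale. Scores under 10 lay on whole multiples of 0.321 within 0.0048, so that neighbouring values differ by 1 step. Gene-end peaks had a median score of 7.06 (interval of the median 6.74 to 7.06), the same as all other peaks (7.06), and 50.6% of them scored at or above the median of the list, against 51.7% of all other peaks (difference -1.12 points, -4.77 to 2.53). Gene-end peaks reached that median less often than coding-exon peaks, of which 62.0% did (difference -11.4 points, -16.1 to -6.71). The scores of gene-end peaks ran from 4.81 to 32.7. A score of 10 was reached by 77 of them (10.5%, 8.49 to 12.9), against 13.9% of all other peaks (difference -3.39 points, -5.44 to -0.93) and 10.2% of intron peaks with no repeat name (difference 0.30 points, -1.86 to 2.83). A score of 20 was reached by 9. A width over 500 bp was found in 19.8% of gene-end peaks and in 22.9% of all other peaks (difference -3.15 points, -5.91 to -0.08).

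The 10 highest scores stood at 6 protein-coding genes, 3 lncRNAs and 1 transcribed pseudogene. Tmem267, which encodes a transmembrane protein, held the highest, 32.7, in a 500 bp peak in its 3′ UTR (chr13:119609305-119609805) that lay 904 bp before the gene end, 3.05 kb from the next peak, with 0% of its bases soft-masked. The authors' nearest TSS for this peak is that of the chemokine gene Ccl28, 14.3 kb away. The lncRNA E330023G01Rik followed with 30.2 in a peak of 1539 bp past its end (chr9:98747145-98748684), and 99.5% of that peak was soft-masked. The pseudogene Gm13238 (28.6) and the lncRNA Gm12596 (28.2), whose peak of 1681 bp was the widest of the 733, came next.

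Among protein-coding genes, Slc30a4, a zinc transporter, scored 26.6 in a 3′ UTR of 3946 bp. Slc26a8, an anion transporter of male germ cells, scored 24.1 in a peak of 1607 bp, wider than its 3′ UTR of 389 bp. That peak held 525 coding bases. Fyco1, an adaptor for the transport of autophagosomes, scored 23.7 in a peak centred 875 bp past its end, of which 60.2% was soft-masked. Amz1, a metalloprotease, scored 22.8 in a 3′ UTR class peak with 109 coding bases, and A530032D15Rik scored 21.8. The last of the 10 was the lncRNA 6430411K18Rik (19.6), 473 bp from the TSS of Mir127, in the imprinted Dlk1-Dio3 region. Soft-masking in these 10 peaks ran from 0% to 99.5%, so they do not share a repeat content. The lncRNA BC048559 (score 18, 1331 bp) completed the 5 widest, which had scores between 18 and 30.2.

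Where along the gene end the peaks lie was measured from the current RefSeq annotation, in which the transcript was found at the peak for 720 of the 733. In the TTS class, centres lay at a median of 470 bp past the end (433 to 520), and 430 of 438 fell within the window from 100 bp before to 1 kb past it. The 2 bins of 100 bp on either side of the end held 27 and 25 centres, fewer than any of the 9 bins from 100 bp to 1 kb past it, which held 35 to 49 each. In the 3′ UTR class, centres lay at a median of 1035 bp before the end (866 to 1201) in 3′ UTRs with a median length of 2012 bp, and 283 of 284 were in the last exon. The annotated end itself was inside 139 of 720 peaks, or 19.3%: 27.4% of the TTS class and 6.74% of the 3′ UTR class. Coding sequence of the same transcript reached into 94 of 282 peaks of the 3′ UTR class (33.3%) and into 23 of 368 TTS class peaks at coding transcripts (6.25%).

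To see gene ends in their surroundings, all peaks, whatever their class, were placed around 1 annotated end for each of 21000 protein-coding genes. In windows of 1 to 5 kb the density stayed between 16.8 and 20.9 per Mb on both sides, with a dip at the end itself. There were 16.8 centres per Mb (15.1 to 18.7) in the first 1 kb past the end, 18.1 (16.3 to 20.01) from 1 to 2 kb and 19.02 (18.2 to 19.9) from 5 to 10 kb past it. Before the end there were 20.9 per Mb (18.99 to 22.9) in the last 1 kb and 16.8 (16.02 to 17.6) from 10 to 5 kb. The highest of the 200 bp bins was 600 to 400 bp before the end, at 28.6 per Mb (23.7 to 34.2), a stretch that in genes with a short 3′ UTR is coding.

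The dip was chosen for description after the profile was seen. Within 200 bp of the end there were 92 centres, or 10.95 per Mb, against 20.8 per Mb between 200 bp and 1 kb away on either side, a ratio of 0.526 (0.418 to 0.654). The ratio was 0.424 (0.299 to 0.586) with peaks at or above the median score, 0.522 (0.402 to 0.668) with centres outside soft-masked bases and 0.422 (0.292 to 0.593) with peaks under 10% soft-masked. Over the gene-end peaks alone, which leave out the coding-exon and intron peaks before the end, the dip was shallower, with 9.29 per Mb within 200 bp, 13.2 per Mb beyond and a ratio of 0.704 (0.546 to 0.898). GC moved with it: the last 200 bp before the end held 40.8% GC and the first 200 bp past it 43.9%, against 45.1% to 46.5% in the bins from 200 bp to 1 kb away. The part of GC in the dip was not tested.

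**Figure D1:**
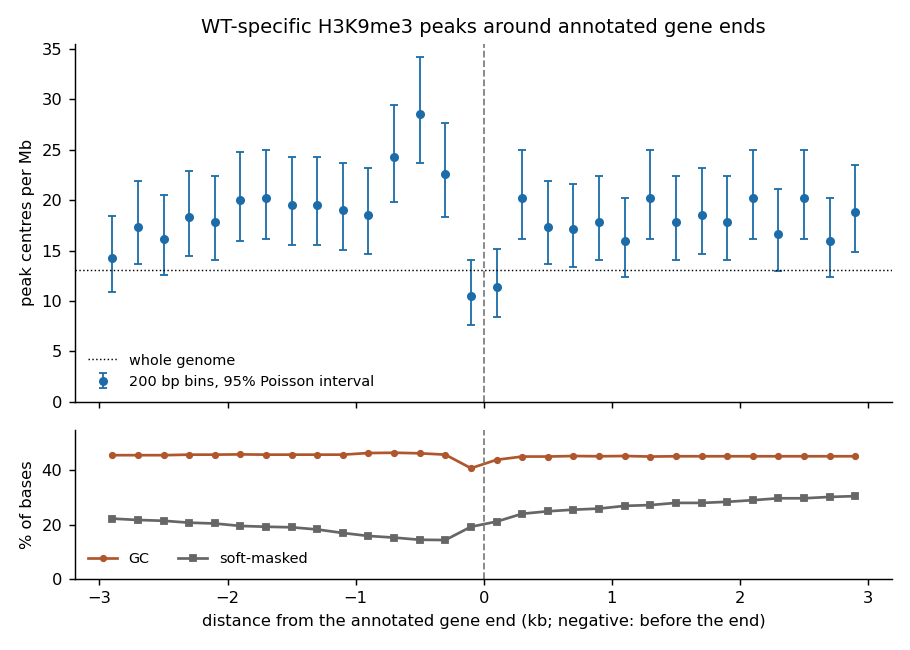
Peak centres per Mb in 200 bp bins around the annotated ends of 21000 protein-coding genes (upper panel, points with 95% Poisson intervals, dotted line for the whole genome) and the GC and soft-masked percent of the same bins (lower panel), against distance from the end in kb. The 2 bins beside the end stand at 10.5 and 11.4 per Mb, below all other bins, which range from 14.3 to 28.6.

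Counted by territory, each base of the genome was given 1 class in the order promoter, TTS window, coding exon, 5′ UTR, 3′ UTR, non-coding exon, intron and intergenic. The class recomputed in this way was the authors' class for 720 of the 733 gene-end peaks. The TTS territory held 16.8 centres per Mb (15.3 to 18.4) and the 3′ UTR territory 14.4 (12.8 to 16.03), against 12.6 in introns, 12.9 in intergenic sequence and 31.1 (29.3 to 33.1) in coding exons. The 2 gene-end territories combined held 1.25 times the density of introns (1.16 to 1.34), 1.22 times that of intergenic sequence (1.14 to 1.31) and 0.506 times that of coding exons (0.461 to 0.556). Outside soft-masked bases the same ratios were 1.27, 1.32 and 0.498. Promoters held fewer, 9.61 per Mb (8.55 to 10.8). GC was 43.8% in both gene-end territories, 42.4% in introns, 40.7% in intergenic sequence and 51.6% in coding exons, and its part in these densities was not tested.

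**Figure D2:**
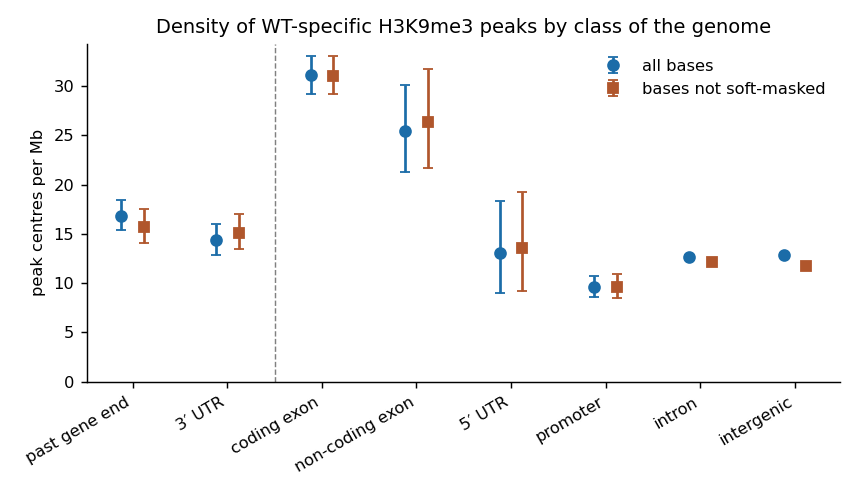
Peak centres per Mb (vertical axis) in each class of the genome, over all bases (circles) and over bases that are not soft-masked (squares), with 95% Poisson intervals. The gene-end classes, left of the dashed line, stand at 16.8 and 14.4 per Mb over all bases, between coding exons at 31.1 and introns at 12.6.

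Repeat content separated the TTS class from the 3′ UTR class. Soft-masked bases, the repeats marked in lower case in the RefSeq genome, made up a median of 16.2% of TTS class peaks (13.7 to 18.96) and 6.78% of 3′ UTR class peaks (5.39 to 8.78). The centre was soft-masked in 125 of 449 TTS class peaks (27.8%) and in 32 of 284 3′ UTR class peaks (11.3%). Of all bases, 24.9% were soft-masked in the TTS territory and 16.1% in the 3′ UTR territory. In introns, intergenic sequence and coding exons the shares of bases were 28.7%, 42.7% and 4.66%, so the shares of peak centres partly follow the sequence of each class. Over all gene-end peaks it was soft-masked in 21.4% (18.6 to 24.5), against 31.6% of all intron peaks (difference -10.2 points, -13.1 to -6.95), 47.4% of all intergenic peaks and 4.66% of coding-exon peaks. Intron and intergenic peaks with no repeat name, which that name itself selects for few repeats, stood at 8.60% and 9.90%, so their lower shares follow from the selection. In all, 84 gene-end peaks had more than 50% of their bases soft-masked, while 329 had under 10%. The share with under 10% was 62.0% in the 3′ UTR class, and 34.1% in the TTS class.

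**Figure D3:**
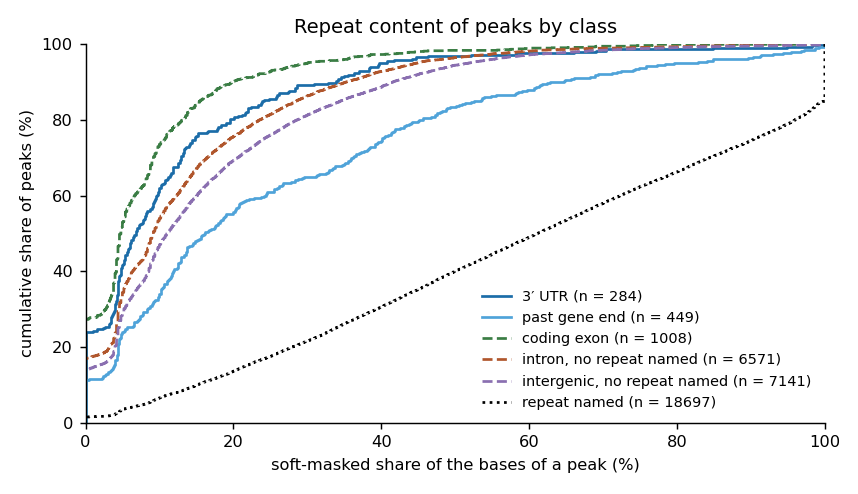
Cumulative share of peaks (vertical axis, percent) by the soft-masked share of their bases (horizontal axis, percent), for the 2 gene-end classes (solid), coding-exon, intron and intergenic peaks with no repeat name (dashed) and peaks with a repeat name (dotted). The TTS class, with a median of 16.2%, lies below the dashed classes, of which the intron and intergenic ones were selected for having no repeat name, and peaks with a repeat name have a median of 61.1%.

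GC and CpG of the gene-end peaks were near those of intron peaks with no repeat name. Median GC was 51.0% (50.7 to 51.4) in gene-end peaks, 51.0% in intron peaks with no repeat name (49.8% in all intron peaks), 49.7% in intergenic ones with no repeat name and 52.5% in coding-exon peaks. The observed to expected CpG ratio had a median of 0.222 (0.208 to 0.232) in gene-end peaks, 0.226 in intron peaks and 0.294 in coding-exon peaks.

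The polyadenylation hexamers AATAAA and ATTAAA followed the annotated end. On the strand of the gene, 1 or both were in 99 of the 139 peaks that hold the end (71.2%, 63.2 to 78.1), against 47 of the same 139 on the opposite strand (33.8%, 26.5 to 42.0). In the 581 peaks that do not hold the end they were in 25.1% on the gene strand (21.8 to 28.8) and in 27.5% on the opposite strand (24.1 to 31.3). In the 3′ UTR class as a whole the shares were 24.8% on the gene strand and 23.8% on the opposite strand. On the plus strand of the genome, 31.4% of gene-end peaks and 33.0% of all other peaks held either hexamer.

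More genes with a long 3′ UTR held a 3′ UTR class peak, but not more per base. Genes were put in 5 equal groups of 4200 by their longest 3′ UTR. In the group with a median of 57 bp, 0 of 4200 genes had such a peak, which allows up to 0.0714%. In the groups with medians of 296, 719 and 1450 bp the shares were 0.333%, 1.17% and 1.69%, and in the group with a median of 2978.5 bp it was 3.43% (2.92 to 4.02). A longer 3′ UTR has more room, and its last 100 bp belong to the TTS window. Per Mb of 3′ UTR before those 100 bp there were 16.3 (8.89 to 27.3), 18.5 (13.7 to 24.5), 12.3 (9.64 to 15.6) and 10.5 (8.89 to 12.4) peaks in the groups with medians of 296, 719, 1450 and 2978.5 bp. The shortest group had only 0.0427 Mb of such sequence. TTS class peaks, whose window has 1 length for every gene, were at 1.38% (1.07 to 1.78) in the shortest group and between 1.71% and 2.10% in the other 4.

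**Figure D4:**
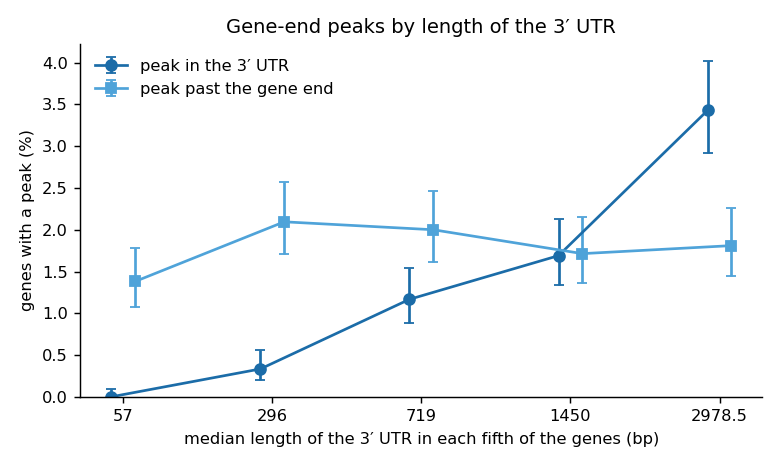
Share of protein-coding genes with a peak (vertical axis, percent, 95% Wilson intervals) in 5 equal groups by 3′ UTR length (horizontal axis, median in bp), for the 3′ UTR class (circles) and the TTS class (squares). The 3′ UTR class reaches 3.43% in the longest group, where there is most sequence to hold a peak, and the TTS class stays between 1.38% and 2.10%.

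A nearest-TSS assignment would place many of these peaks at another gene. A gene was found for 729 of the 733 peaks, and a peak with none was counted as nearest to another gene. Counted so, the nearest TSS given by the authors belonged to another gene than the one whose end holds the peak in 333 of 733 (45.4%, 41.9 to 49.1). For those peaks the assigned TSS lay at a median of 11.2 kb, while their own TSS lay at a median of 33.8 kb. Of the 326 with a strand for both genes, 172 (52.8%) stood upstream of the next gene on the same strand, and 116 (35.6%) were downstream of the TSS of a gene on the opposite strand. Blcap, whose 3′ UTR holds a peak of score 7.06, was thus assigned to Nnat, 2.62 kb away, and H13, a signal peptide peptidase with a peak of 9.63 past its end, to Mcts2, 1.01 kb away. These 4 genes belong to known imprinted loci. At 28 peaks the centre was in the end of 2 or more genes, and in 25 of those the genes were on opposite strands.

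Gene-end peaks had neighbours more often than all other peaks pooled, though not beyond counting error against every class. Another peak lay within 10 kb of 41.1% of them (37.6 to 44.7), against 34.6% of all other peaks, a difference of 6.51 points (2.97 to 10.1). Against intergenic peaks with no repeat name, at 38.0%, the difference was 3.02 points (-0.67 to 6.79). The share was 43.9% in the TTS class, and 36.6% in the 3′ UTR class. Within 2 kb the shares were 12.3% and 8.95% (difference 3.32 points, 1.12 to 5.92). The 729 peaks with a gene fell on 712 genes, of which 17 held 2 peaks and 0 held 3 or more. The pseudogene Gm4541 counts among the 17 by name only. Its 2 peaks lie 1317013 bp apart, and its transcript was found at neither in the current annotation. Those 17 include Map6, a microtubule stabiliser, with scores of 7.06 in its 3′ UTR and 14.1 past its end, E2f3, a cell cycle transcription factor, with 9.95 and 7.06, and the zinc finger gene Zfp442, with 8.34 and 8.02. Slc29a3, a nucleoside transporter, had 16 past its end and 6.1 in its 3′ UTR. The genes Kcnj6 and Kcnn1 each had a pair at 6.42 and at 6.1.

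Genes with a gene-end peak also more often had another WT-specific peak in their body. This was so for 270 of 644 (41.9%, 38.2 to 45.8), against 29.9% of the 20356 protein-coding genes without one. Long genes have more room for peaks, so the shares were also taken within 5 equal groups by gene length. In the longest group, with a median of 111 kb, they were 79.5% and 68.5% (difference 10.9 points, 3.52 to 16.9), and in the middle group, with a median of 17.7 kb, 35.1% and 25.2% (9.96 points, 2.61 to 18.1). In the 2 shortest groups the intervals of the difference included 0 (-1.77 to 11.2 and -3.87 to 7.85 points).

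Chromosomes differed most at the sex chromosomes. Gene ends held 0.494% of the 1215 peaks on X (6 peaks), against 2.21% (2.06 to 2.37) of the autosomal peaks, a difference of -1.72 points (-2.03 to -1.12). Of the protein-coding genes on X, 5 of 963 had a gene-end peak (0.519%), against 3.10% of autosomal ones (difference -2.58 points, -2.96 to -1.85). X held 7.1 peaks per Mb of any class and 5.63 coding genes per Mb, against 13.3 and 8.35 on the autosomes. The paper states that mice were used regardless of gender, and the sex of the animals in these libraries is not given. Y held 2 gene-end peaks of 566. Among autosomes, chromosome 7 had the highest share, 3.28% (2.66 to 4.03), at 13.9 coding genes per Mb, and chromosome 3 the lowest, 1.29% (0.844 to 1.96), at 6.14 coding genes per Mb.

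By biotype, 660 of the 733 peaks were at protein-coding genes, 44 at lncRNAs, 12 at transcribed pseudogenes, 11 at miRNAs and 2 at snoRNAs. In all, 644 of 21774 protein-coding genes had a gene-end peak (2.96%). The share was lower for lncRNA genes, 44 of 12637 (0.348%, 0.260 to 0.467), and for miRNA genes, 11 of 1228 (0.896%, 0.501 to 1.60). These denominators hold every gene of the biotype in the current RefSeq annotation, whether or not the authors' annotation had a transcript for it. The lower shares are therefore not shown to be a property of these genes. A transcript without coding sequence has no 3′ UTR, so by construction all of these lncRNA and miRNA peaks were in the TTS class. Protein-coding genes could also be reached through the 3′ UTR class, which held 282 of their 660 peaks. The lists below were chosen with results of these data known, and a share near 2.96% is not a result about a list.

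C2H2 zinc finger genes, many of them KRAB repressors of retroelements, had a gene-end peak in 32 of 437 (7.32%, 5.23 to 10.2). Their 33 peaks had a median score of 7.06, against 6.74 over all protein-coding genes, and 20 were in the TTS class. The highest were at Zfp458 (14.1), Zfp433 (12.2), Zfp945 (10.9) and Zfp454 (10.6), all in the TTS class and all with their own TSS nearest. The centres at Zfp458, Zfp945 and Zfp454 lay 261, 350 and 765 bp past the end, and these 3 peaks held 0 coding bases of the transcript, so they lay outside the zinc finger coding exon. This does not hold for the whole list. The peak of Zfp97 held 296 coding bases in 665 bp and that of Zkscan7 held 307 in 627 bp. The Zkscan7 peak is in the authors' TTS class, but in the current annotation its centre lay 2488 bp before the end, in a 3′ UTR of 2495 bp. Coding overlap was not counted over all 33 peaks. Soft-masking was 20.8% at Zfp458, 44.1% at Zfp945, 3.78% at Zfp454 and 2.46% at Zfp433. With only the peaks that have under 10% of their bases soft-masked, 7 of 437 zinc finger genes (1.60%) and 1.38% of all protein-coding genes kept a peak. Zinc finger genes had a median 3′ UTR of 1385 bp, against 719 bp over all protein-coding genes.

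Potassium channel genes had a gene-end peak in 9 of 92 (9.78%, 5.23 to 17.6), with 11 peaks of median score 6.42. They were Kcnt1, a sodium-activated channel (8.34), Kcnn4, a calcium-activated channel (8.02), Kcne1, an accessory subunit (8.02), Kcnf1, a silent subunit (7.06), and Kcnk13, Kcnj6, Kcnn1, Kcnk3 and Kcnma1. Of the 11 peaks, 7 were in a 3′ UTR and 0 had a soft-masked centre. The median 3′ UTR of this list was 1776 bp.

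Genes of the extracellular matrix (ECM) and its receptors, a pathway the study follows in BG, had a gene-end peak in 6 of 119 (5.04%, 2.33 to 10.6), an interval that includes the 2.96% of all protein-coding genes. Col26a1, a collagen, scored 10.3 past its end. Thbs1, a secreted glycoprotein, scored 7.38 and Fras1, a basement membrane protein, 6.74, both in the 3′ UTR. Itga2b, the platelet integrin, scored 6.1. Itgax and Sdc3 were the other 2. Of axon guidance and migration genes, 2 of 92 had one, the semaphorin receptor Plxnb3 (6.42) and the ephrin Efna3 (5.78).

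Over 5 cell type lists, 4 of 121 genes had a gene-end peak (3.31%, 1.29 to 8.19), near the 2.96% of all protein-coding genes. BG and astroglia genes had 0 of 38, which allows up to 7.89%, granule neuron lineage genes 0 of 28 and Purkinje cell genes 0 of 18. The myelin genes Mbp (7.06, in the 3′ UTR) and Mobp (6.74, past the end) were the 2 of 17 oligodendrocyte genes (11.8%, 3.29 to 34.3). The 2 of 20 microglial and vascular genes (10%, 2.79 to 30.1) were the endothelial receptor Kdr, whose 3′ UTR peak scored 13.8, and the pericyte receptor Pdgfrb, with 11.6 past its end. Of 16 genes taken as named by the study, among them Setdb1, Nfix, Trim28, Col18a1 and BG markers, 0 had a gene-end peak. With 2.96% over all protein-coding genes, a 0 among so few is not a result about them. Peaks elsewhere in a gene are not counted here, and the study shows H3K9me3 peaks at the Col18a1 locus. Genes of H3K9 methylation and NFI had 0 of 33, which allows up to 9.09%. A peak at a marker gene does not measure that cell type, and the list holds no expression values with which to check the cells.

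The chemoreceptor families, which are silent outside sensory epithelia, had few gene-end peaks. Olfactory receptors had 3 of 1116 (0.269%, 0.0915 to 0.787), namely Olfr1414 (7.38), Olfr412 (6.74) and Olfr127 (6.1). Vomeronasal receptors had 3 of 354 (0.847%, 0.289 to 2.46), namely Vmn1r208 (9.95), Vmn1r59 (8.99) and Vmn2r44 (6.42). All 6 were in the TTS class, and the median annotated 3′ UTR of both families is 0 bp. In the group of genes with the shortest 3′ UTRs, 1.38% had a TTS class peak, a share inside the vomeronasal interval and above the olfactory one. That group, with 3′ UTRs of 0 to 165 bp, itself includes many genes of both families, so it is not a separate reference. Clustered protocadherins had 0 of 58 and cytosolic ribosomal protein genes 0 of 85, which allows up to 3.53%. The germline list, drawn up by gene symbol and not by expression, had 2 of 159, Tex43 (10.9) and Spata13 (5.78). A symbol alone does not make either a germline gene. Imprinted genes had 2 of 45, H13 and Blcap, given above. Grik3, a kainate receptor (7.38), was 1 of 29 glutamate receptor genes, and Fat2 (7.38) and Cdh26 (6.1) were 2 of 44 cadherins outside the clusters.

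**Figure D5:**
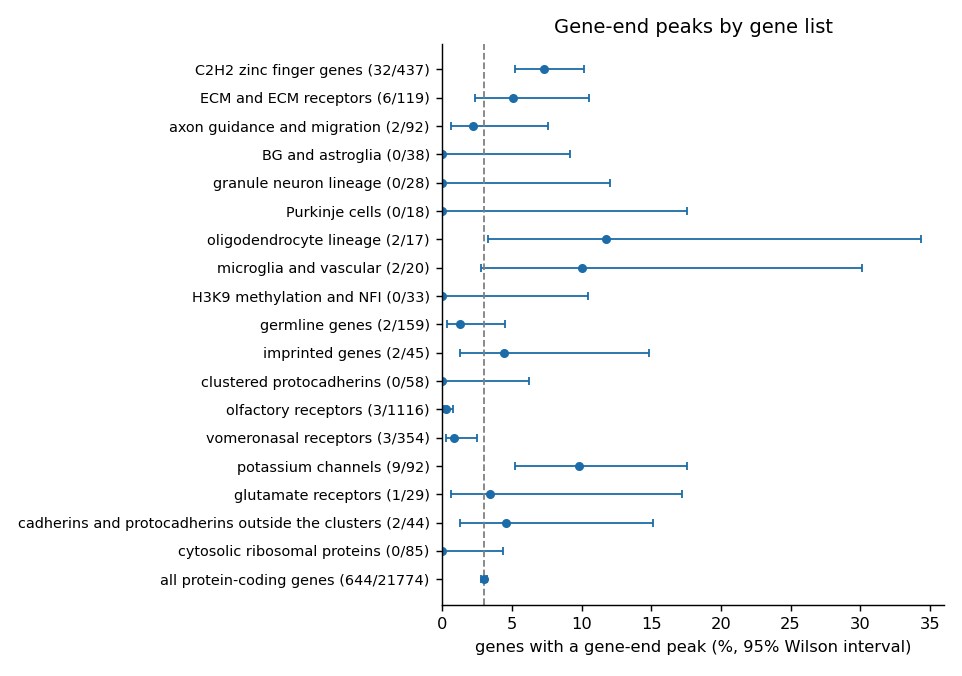
Share of the genes of each list with a gene-end peak (horizontal axis, percent, 95% Wilson intervals), with the numbers of genes beside each name and a dashed line at the 2.96% of all protein-coding genes. The zinc finger list stands at 7.32% and the potassium channels at 9.78%, while olfactory receptors stand at 0.269%.

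The 11 miRNA peaks, at 0.896% of 1228 miRNA genes, were of 2 kinds, those over the hairpin and those beyond it. The hairpin lay wholly inside the peak for Mir708 (score 9.95), Mir6971 (8.99), Mir6409 (6.42), Mir6241 (6.1), Mir6903 (6.1) and Mir6769b (6.1). The peaks of Mir206 (7.38), Mir8103 (7.06) and Mir6414 (6.74) lay past the hairpin, and 2 others overlapped it in part. For hairpins inside a peak whose mature arms are annotated, the RefSeq sequences (GRCm38.p6) are shown 5′ to 3′, with the seed, bases 2 to 8, in capitals.

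mmu-miR-708-5p: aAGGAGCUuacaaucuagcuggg
mmu-miR-708-3p: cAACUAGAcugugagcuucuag
mmu-miR-6409: uGCGGGUGaggaugugugcuccu
mmu-miR-6241: cACGGCGGcuggaauuccc
mmu-miR-6903-5p: uUGGGAAAagcaguacuuacca
mmu-miR-6769b-5p: cCUGGUGGguggggaagagc

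No seed is shared among these arms. Soft-masking was 0% in the peaks of Mir708 and Mir6241 and 100% in that of Mir6414, which lies past its hairpin. Of the 2 snoRNAs, Snora47 lay wholly inside its peak (7.06), and the transcript of the other was not found at its peak in the current annotation.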

How the data were processed

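H3K9me3 ChIP-seq libraries of BG were aligned to mm10 with Bowtie2 and peaks called with HOMER (versions 2.2.8 and 4.10.1 in the submitters' processing notes), at an FDR of 0.001 and at least 4-fold over the local 10 kb, with 1 best location per read and 1 tag per position. The deposited list gives a position, the authors' peak score and the authors' annotation, and no per-library value. A heading of the list can be read as naming input, mutant BG or both as background, and no source used here tells how the libraries were combined. A read given 1 of several matching places can put a repeat's signal at the wrong copy.

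Positions, distances, classes, sequence and soft-masking were computed from RefSeq GRCm38.p6, the same build as mm10, with Python 3.11.15, pandas 2.3.3, scipy 1.17.1 and pysam 0.24.0. The gene is that of the transcript the authors name at the peak. No source used here names the program that soft-masked the genome. TTGGCA and its palindrome were searched on both strands, and AATAAA and ATTAAA on each strand apart. Shares have Wilson intervals, differences Newcombe intervals, densities exact Poisson intervals and ratios of densities exact binomial ones, all at 95%. The intervals and the motif scan were tested on simulated data. Centres near several ends count once for each end in the profile around gene ends.

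The members and the 19 gene lists (18 with members in the annotation) were chosen with earlier results of these data known. Named genes are those of the 10 highest scores and 5 widest peaks, up to 4 per list by score, genes with at least 3 gene-end peaks and genes the study names. Genes with 2 peaks, the remaining members of a list and the miRNAs were named after their values were seen. Alternatives were a floor on score, the recomputed class, a limit of 10% soft-masked bases and other windows.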

Additional observations from a re-analysis of the deposited data

How the results depend on the processing

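Of 47 values recomputed under another setting, 30 gave a value inside the 95% interval of the main value and 17 did not. With the class recomputed from RefSeq, the share of the list at gene ends was 2.30%, and the other 14 results stayed inside. With only peaks under 10% soft-masked, the share of the list at gene ends was 3.49%, the 3′ UTR class made up 53.5% of gene-end peaks, the nearest TSS was of another gene in 49.2%, median GC was 52.7%, the end was held by 14.3%, the hexamers were on the gene strand in 22.4%, and 1.38% of protein-coding and 1.60% of zinc finger genes had a gene-end peak. With only scores at or above the list median, 38.3% were wider than 500 bp, the CpG ratio was 0.239, TTGGCA was in 29.1%, and 1.48% of protein-coding and 4.12% of zinc finger genes had a peak. By construction, a neighbour within 2 kb was rarer (12.3%), an end within 500 bp of the centre commoner (40.6%) and TTGGCA within 200 bp around the centre rarer (12.01%). The alternatives for the dip at the gene end were added after seeing the data, and the score floor (0.424) and both repeat limits (0.522 and 0.422) left the ratio inside its interval of 0.418 to 0.654, while gene-end peaks alone gave 0.704, outside it. Where not set by construction, the cause was not tested. No paired analysis was possible because the list has no value per library, and for the same reason no replicate could be left out. Depth is unknown, so a gene end without a peak is not shown to lack the mark.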
